A study of Homo sapiens with 3 samples.

Results

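The 9 genes described here encode enzymes that cut the extracellular matrix around cells and the proteins that restrain or localize them: the matrix metalloproteinases MMP1, MMP2, MMP3 and MMP14, the tissue inhibitors TIMP1, TIMP2 and TIMP3, the urokinase-type plasminogen activator PLAU and its receptor PLAUR. The probes were taken by gene symbol, as those whose RefSeq transcript belongs to one of the 9 genes. They hold 10 of the 58201 probes, 2 for PLAU and 1 for every other gene, among 25006 genes that could be named.

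RNA of 2 clones of U-87MG (U87), a cell line derived from a human glioblastoma, was hybridized on 2-colour SurePrint G3 Human Gene Expression v3 arrays. U87WT 5 carries GFP-IGF1R, a GFP fusion of the wild-type IGF1 receptor that is labelled as nuclear, and U87Mut 5 carries GFP-IGF1R1025x-1100x-1120x, in which lysines were replaced and whose receptor is labelled as non-nuclear. There were 3 arrays, 1 for each of FBS-free medium for 24 h, IGF1 at 50 nM for 24 h, and IGF1 at 50 nM with OSI906, an inhibitor of the kinase of the IGF1 and insulin receptors, at 0.5 µM per the treatment notes (the medium label of that array gives 500 µM). OSI906 was given before IGF1, for 1 h per the methods and 24 h per the labels. Each clone is a single stable transfectant of its plasmid, both were grown in MEM with serum and harvested with trypsin, and both keep the IGF1R gene of U87 cells. Parental U87 cells were not analysed here.

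U87WT was in Cy5 and U87Mut in Cy3 on every array, so a difference between the clones and a dye bias of a probe cannot be told apart in a ratio. That bias cancels in the change of a ratio from one array to another. No condition was repeated, so a value on a single array has no replicate error, and the number of arrays limits the precision. In RNA from whole cultures, fewer cells that make a transcript and less transcript per cell cannot be told apart.

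Secreted MMPs are made as inactive precursors and are switched on by proteolysis. Plasmin, which urokinase makes from plasminogen while it sits on its receptor at the cell surface, is one of the activating proteases, and MMP14 activates MMP2 at the membrane with TIMP2 as a bridge. In glioblastoma this network is known for its part in invasion into brain tissue. The arrays measure RNA and not the activity of any of these proteins.

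Of all probes, 50.1% to 52.8% were well above background in both channels, and 0 spots were saturated. Spots marked as not uniform numbered 384 on the FBS-free array, 572 on the IGF1 array and 5 on the IGF1 + OSI906 array. Over the 27680 probes well above background in every channel, called bright probes below, the clone log2 ratio (U87WT over U87Mut) on the FBS-free array correlated with that on the IGF1 array at 0.684 and with that on the IGF1 + OSI906 array at 0.786, across probes, which are not independent. A single ratio had an SD of 0.143 on the log2 scale, computed over bright probes from how far the FBS-free and IGF1 + OSI906 arrays differ and so including any response. The IGF1R probe had log2 ratios of 0.07, 0.23 and 0.09 in the order FBS-free, IGF1, IGF1 + OSI906, which is the order used for all values by array. Whether this probe reads the transgene besides the gene of the cell was not checked, so the ratios do not compare the transgenes. Of the glioblastoma and neural markers, VIM, NES, CD44 and OLIG2 were above background in all 6 channels, S100B in 2, and the defining astrocyte marker GFAP and SOX2 in 0. VIM and CD44 had mean log2 levels of 15.61 and 14.25, while NES was at 6.90 and OLIG2 at 6.10. Of 6 markers of other cell types, PTPRC, CDH5 and EPCAM were above background in 6 channels, AIF1 in 4, PECAM1 in 1 and KRT5 in 0. All were dim: the mean log2 levels of PTPRC, CDH5 and EPCAM were 6.21, 6.10 and 6.84, beside 5.84 for KRT5. EPCAM had a mean log2 ratio of 0.36 (limma, adjusted p = 0.0463). The part of these markers in the results was not tested.

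MMP1, MMP2, MMP3, TIMP2 and PLAU were higher in U87WT than in U87Mut, with mean ratios of 1.26- to 2.00-fold, while the urokinase receptor PLAUR had ratios below 0 on every array without passing the test. In FBS-free medium, 5 of the 8 genes with a value had a clone log2 ratio above 0.5 (2.37% of all probes and 4.76% of bright probes did) and 1 was below -0.5 (2.25% and 4.7%). With IGF1, 3 of 8 were above 0.5 (2.62% and 5.25%) and 0 below -0.5 (1.76% and 3.65%). With IGF1 + OSI906, 5 of 9 were above 0.5 (2.24% and 4.59%) and 0 below -0.5 (2% and 4.19%). MMP2, MMP3 and PLAU were above 0.5 on all 3 arrays, as were 2.1% of bright probes, and 0 genes were below -0.5 on all 3 (1.7%). The median log2 ratio of the genes was 0.73, 0.12 and 0.52, beside -0.01, 0.00 and 0.00 for bright probes.

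The mean ratio of all 3 conditions was tested against 0 by limma, with Benjamini-Hochberg adjustment over all 58201 probes, and any response to treatment is part of its error. It called 5 of the 9 genes higher in U87WT (MMP1, MMP2, MMP3, TIMP2 and PLAU) and 0 lower, where 7 had an unadjusted p under 0.05. Of all probes it called 4.47% higher and 4.31% lower, and of bright probes 8.98% and 8.94%. These calls depend on the processing: 1 gene was called with the background fitted on all spots. With the signals processed by the scanner software or with median centring in place of loess, 0 were called. With the scanner software's signals and with median centring alike, 6 genes had an unadjusted p under 0.05, not always the genes that had it in the main setting. The share of all probes with an unadjusted p under 0.05 was not counted in any setting, so how unusual these numbers of genes are cannot be said.

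**Figure D1:**
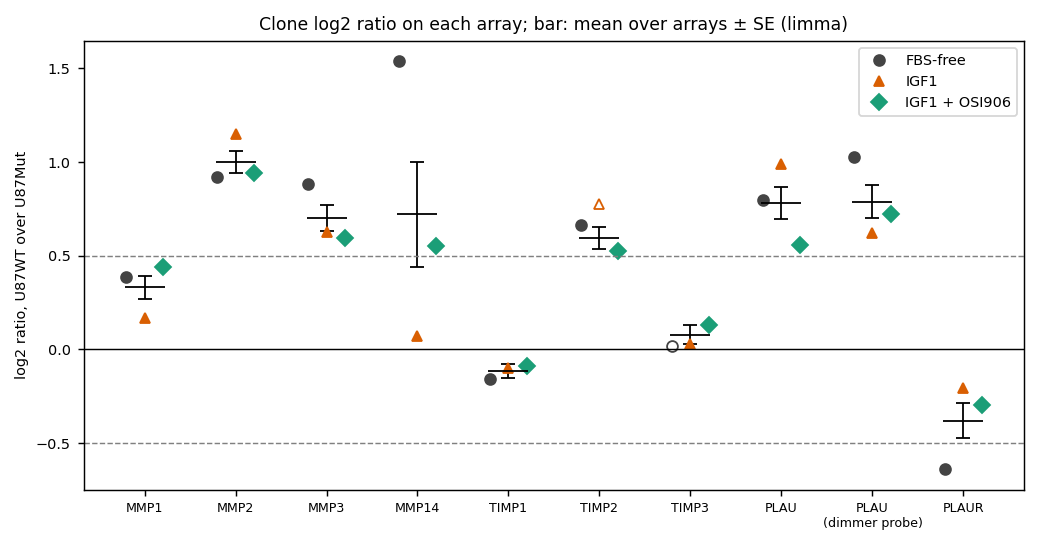
Clone log2 ratio (U87WT over U87Mut, vertical axis) of each probe on the FBS-free (circles), IGF1 (triangles) and IGF1 + OSI906 (diamonds) arrays, with the limma mean and its SE as bars; open symbols are spots marked as not uniform, which are not in the mean, and dashed lines mark 0.5 and -0.5. MMP2, MMP3 and both PLAU probes lie above 0.5 on all 3 arrays, MMP14 spans 0.07 to 1.54, and TIMP1 and PLAUR lie below 0.

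MMP2 (NM_004530), the gelatinase that degrades denatured and basement membrane collagen, had log2 levels in U87WT of 13.03, 12.90 and 12.99. Its levels in U87Mut were 12.11, 11.75 and 12.05. All U87WT samples were above all U87Mut samples, and the conditions of one clone lay closer together than the clones did. How many of all probes separate the clones so was not counted, for this gene or for those below. The log2 ratios were 0.92, 1.15 and 0.94, that is 1.89-, 2.22- and 1.92-fold. The limma mean was 1.00 ± 0.06 (SE, 3 arrays; 95% interval 0.85 to 1.15), or 2.00-fold, with an adjusted p of 0.00363, and the mean was past the threshold in 12 of 14 alternatives (adjusted p from 0.000123 to 0.249).

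MMP3 (NM_002422), stromelysin-1, which cleaves matrix glycoproteins and activates other MMP precursors, had U87WT log2 levels of 11.06, 10.95 and 10.93. The U87Mut levels were 10.17, 10.32 and 10.34. Again the clones did not overlap, and in U87Mut the IGF1 and IGF1 + OSI906 levels were practically the same. The log2 ratios were 0.88, 0.63 and 0.59, with a limma mean of 0.70 ± 0.07 (SE, 3 arrays), or 1.63-fold, and an adjusted p of 0.00894 (8 of 14 alternatives past the threshold, adjusted p from 0.000916 to 0.1996). Its ratio on the IGF1 array was 0.23 in the deposited table.

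MMP1 (NM_002421), the interstitial collagenase that cuts fibrillar collagen, was printed on 10 spots of each array, of which 10, 8 and 9 were used. It was a dim probe, with U87WT log2 levels of 7.08, 6.80 and 7.28. The U87Mut levels were 6.69, 6.63 and 6.85, and the highest U87Mut level was above the lowest U87WT level. The log2 ratios were 0.39, 0.17 and 0.44, with an SD between spots of one array of 0.0588, 0.0479 and 0.0623, which is technical. The limma mean was 0.33 ± 0.06 (SE, 3 arrays) with an adjusted p of 0.0453, close to the threshold, and it was past the threshold in 6 of 14 alternatives (adjusted p from 0.0105 to 0.356). No ratio of MMP1 was past 0.5, but with the scanner software's signals the ratios were higher (0.84 on the IGF1 + OSI906 array).

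MMP1 and MMP3 stand next to each other in a run of MMP genes on chromosome 11, in the order MMP7, MMP20, MMP27, MMP8, MMP10, MMP1, MMP3, MMP12 and MMP13 in the GRCh38.p14 annotation. The probes of MMP20, MMP27, MMP8 and MMP10 were above background in 0 channels, and those of MMP12 and MMP13 in 1. At the other end of the run MMP7, matrilysin, was above background in all 6 channels, with log2 ratios of 0.65, 0.63 and 0.31. Its probe was dim, with a mean log2 level of 6.58 beside 6.89 for MMP1, and its ratios were not run through the alternatives.

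MMP14 (NM_004995), the membrane-anchored collagenase that activates MMP2, varied most between conditions among the 9 genes. Its U87WT log2 levels were 12.39, 10.96 and 11.96, and its U87Mut levels 10.85, 10.88 and 11.41. U87WT was far above U87Mut in FBS-free medium, the clones were level with IGF1, and U87WT was above again with IGF1 + OSI906. The log2 ratio in FBS-free medium was 1.54 (2.91-fold), higher than in 99.8% of bright probes. The ratio with IGF1 was 0.07 (1.05-fold), and the ratio with IGF1 + OSI906 was 0.55 (1.46-fold). The spots were bright before any correction as well, at 6025, 2300 and 3959 in Cy5 and 2046, 1421 and 2366 in Cy3. The limma mean of 0.72 ± 0.28 (SE, 3 arrays; 95% interval -0.01 to 1.46) did not pass, with an adjusted p of 0.243, and passed in 1 of 14 alternatives, without the IGF1 array (range 0.04999 to 0.550). On the IGF1 array its ratio was -0.24 in the deposited table, -0.20 with the background fitted on all spots and 0.55 with median centring.

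The promoter of MMP14 is shown because this gene had the widest range of ratios over the conditions. These are the 250 bases before the start site on the plus strand (GRCh38.p14, chr14:22836335-22836584), as given by RefSeq, with matches to the GC box GGGCGG, which reads CCGCCC on the other strand, and to the AP-1 motif TGAGTCA, which reads TGACTCA there, in capitals.
MMP14: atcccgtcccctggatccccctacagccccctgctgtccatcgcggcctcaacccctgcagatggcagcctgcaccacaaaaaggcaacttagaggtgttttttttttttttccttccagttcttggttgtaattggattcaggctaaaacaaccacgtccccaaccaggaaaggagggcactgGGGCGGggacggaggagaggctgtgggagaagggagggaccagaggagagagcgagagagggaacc
It holds 1 GC box, 66 bases before the start, and 0 AP-1 motifs in this window. Of 35116 promoter windows of this length, 42.6% hold a GC box and 4.2% an AP-1 motif.

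**Figure D2:**
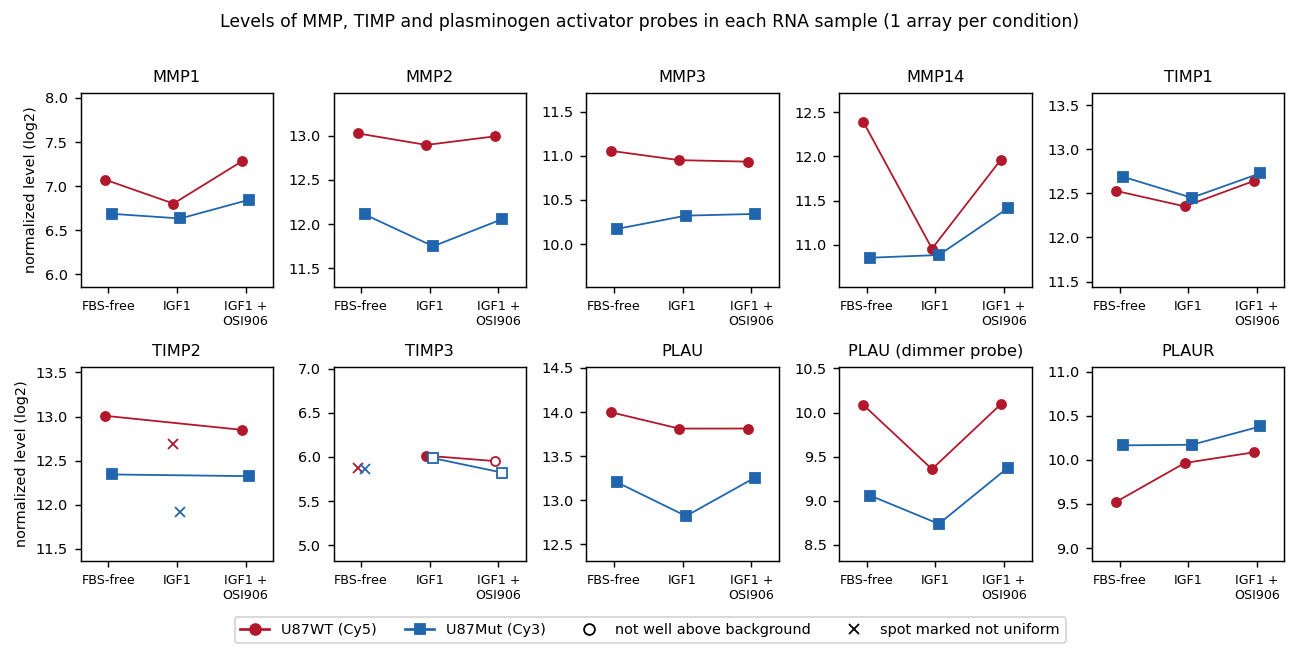
Normalized log2 level (vertical axis, each panel spans the same range) of U87WT (circles) and U87Mut (squares) for each probe in FBS-free medium, IGF1 and IGF1 + OSI906; open symbols are channels not well above background and crosses are spots marked as not uniform. The lines of U87WT and U87Mut stay apart for MMP2, MMP3 and PLAU, and meet on the IGF1 array for MMP14 (10.96 and 10.88).

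Among the inhibitors, TIMP2 was higher in U87WT and TIMP1 differed little. TIMP2 (NM_003255), which inhibits MMP2 and also takes part in its activation, had U87WT log2 levels of 13.01 in FBS-free medium and 12.85 with IGF1 + OSI906. The U87Mut levels were 12.34 and 12.32, so the clones did not overlap. The log2 ratios were 0.66 and 0.52. The spot on the IGF1 array was marked for a background that is not uniform and was left out; with it kept, the levels were 12.69 and 11.91 and the ratio 0.78. The limma mean over the 2 remaining arrays was 0.59 ± 0.06 (SE), or 1.51-fold, with an adjusted p of 0.0168, and it passed in 8 of 12 alternatives (adjusted p from 0.00588 to 0.300).

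TIMP1 (NM_003254), a soluble inhibitor of most secreted MMPs, had U87WT log2 levels of 12.53, 12.35 and 12.64. The U87Mut levels of 12.69, 12.45 and 12.73 overlapped with them. The log2 ratios of -0.16, -0.10 and -0.09 were all near the SD of a single ratio. The limma mean was -0.12 ± 0.04 (SE, 3 arrays; 95% interval -0.21 to -0.02) with an adjusted p of 0.152, and it was 0.10 with median centring in place of loess.

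TIMP3 (NM_000362), an inhibitor that binds to the matrix and also acts on ADAM17, lay at the limit of detection. U87Mut was not well above background on any array, nor was U87WT with IGF1 + OSI906. On the IGF1 array the levels were 6.01 in U87WT and 5.99 in U87Mut, and its spot on the FBS-free array was left out as not uniform. No difference between the clones was detectable for TIMP3 (limma mean 0.08 ± 0.05, SE over 2 arrays, adjusted p = 0.508). With the scanner software's signals its ratio with IGF1 + OSI906 was 1.20, where neither channel was well above background.

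The plasminogen activator PLAU was higher in U87WT, and its receptor PLAUR had the opposite sign on every array without passing the test. PLAU (NM_002658), the protease that turns plasminogen into plasmin, had U87WT log2 levels of 14.00, 13.81 and 13.81 by its brighter probe. The U87Mut levels were 13.20, 12.82 and 13.26, all below those of U87WT. The log2 ratios were 0.80, 0.99 and 0.56 (1.74-, 1.99- and 1.47-fold). The limma mean was 0.78 ± 0.09 (SE, 3 arrays) with an adjusted p of 0.0122, and it passed in 8 of 14 alternatives (adjusted p from 0.000983 to 0.304).

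A second, dimmer PLAU probe (NM_001145031) had U87WT log2 levels of 10.09, 9.36 and 10.09. Its U87Mut levels were 9.06, 8.74 and 9.37, so the U87WT level with IGF1 met the U87Mut level with IGF1 + OSI906. The log2 ratios of 1.03, 0.62 and 0.72 had a limma mean of 0.79 ± 0.09 (SE, 3 arrays; adjusted p = 0.0114), close to that of the brighter probe. The probes differed in where the ratio was highest, on the IGF1 array by the brighter probe and on the FBS-free array by the dimmer one.

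PLAUR (NM_001005377), the receptor that holds urokinase at the cell surface, had U87WT log2 levels of 9.52, 9.96 and 10.08. The U87Mut levels were 10.16, 10.17 and 10.38, all above those of U87WT. The log2 ratios were -0.64, -0.21 and -0.29, that is 1.56-, 1.15- and 1.23-fold higher in U87Mut. The limma mean of -0.38 ± 0.09 (SE, 3 arrays; 95% interval -0.62 to -0.14) had an adjusted p of 0.0856, and it passed in 4 of 14 alternatives (adjusted p from 0.0306 to 0.820). Its ratio on the IGF1 array ranged from -0.60 in the deposited table to 0.22 with median centring, so its direction there depends on the processing.

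The promoters of PLAU and PLAUR are shown side by side because they encode a protease and its receptor. The windows are the 250 bases before each start (GRCh38.p14, from RefSeq), with capitals as for MMP14: PLAU at chr10:73910360-73910609 and, for a second start, chr10:73910882-73911131, both on the plus strand, and PLAUR at chr19:43670170-43670419 on the minus strand.
PLAU start 1: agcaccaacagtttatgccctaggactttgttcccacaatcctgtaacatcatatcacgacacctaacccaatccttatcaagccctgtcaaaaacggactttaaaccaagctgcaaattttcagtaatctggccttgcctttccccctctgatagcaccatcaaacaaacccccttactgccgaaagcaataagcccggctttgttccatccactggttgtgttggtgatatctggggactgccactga
PLAU start 2: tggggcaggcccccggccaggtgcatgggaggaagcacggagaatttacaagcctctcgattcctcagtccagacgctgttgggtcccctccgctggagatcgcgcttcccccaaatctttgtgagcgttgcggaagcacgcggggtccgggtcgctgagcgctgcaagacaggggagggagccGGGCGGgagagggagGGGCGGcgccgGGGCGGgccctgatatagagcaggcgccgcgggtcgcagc
PLAUR: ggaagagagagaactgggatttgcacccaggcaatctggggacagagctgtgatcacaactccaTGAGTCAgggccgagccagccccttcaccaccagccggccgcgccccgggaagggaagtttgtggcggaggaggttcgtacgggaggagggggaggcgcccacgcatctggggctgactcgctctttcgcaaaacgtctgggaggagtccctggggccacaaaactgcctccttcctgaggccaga
The second PLAU window holds 3 GC boxes, at 66, 51 and 40 bases before the start, and the first holds none. PLAUR holds 1 AP-1 motif, TGAGTCA, at 186 bases before the start, and no GC box. These letters are a description of the windows, and no factor was measured on them.

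The change between conditions was taken next, for the ratio and for each clone. From FBS-free medium to IGF1, MMP14 was the only 1 of 7 genes with a value whose log2 ratio dropped past 0.5, by -1.47 (2.16% of bright probes dropped and 2.69% rose so far). The U87WT level of MMP14 was 1.44 lower on the log2 scale (-1.44, to 0.369-fold), a drop past 1 that 0.176% of bright probes showed (0.154% rose past 1). The U87Mut level of MMP14 moved by 0.03, and 0 of the genes moved past 1 in U87Mut (0.011% of bright probes rose and 0.0404% dropped so far). In 4 alternatives for the levels the U87WT change was between -1.68 and -1.46, and the U87Mut change between -0.21, without normalization between arrays, and 0.18.

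From IGF1 to IGF1 + OSI906, the U87WT level of MMP14 was higher by 1.01 (2.01-fold), past 1 as in 0.515% of bright probes (0.183% dropped past 1), although it was 0.99 without normalization between arrays. The U87Mut level was higher by 0.53, so the ratio moved by 0.48, short of 0.5; past 1 in U87Mut were 0 genes, 0.124% of bright probes upward and 0.0913% downward. Of 8 genes with a value, 0 changed their ratio past 0.5 in this comparison (2.76% of bright probes rose and 2.81% dropped so far). From FBS-free medium to IGF1 + OSI906 the MMP14 ratio moved by -0.99, past 0.5 in 1 of 8 genes (0.865% of bright probes dropped and 1.47% rose so far), from a U87WT change of -0.43 and a U87Mut change of 0.56. In that comparison 0 genes changed their level past 1, where 0.287% of bright probes rose and 0.0982% dropped in U87WT, and 0.0364% rose and 0.0218% dropped in U87Mut. All 3 comparisons share arrays with one another, and none of these changes has a replicate.

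**Figure D3:**
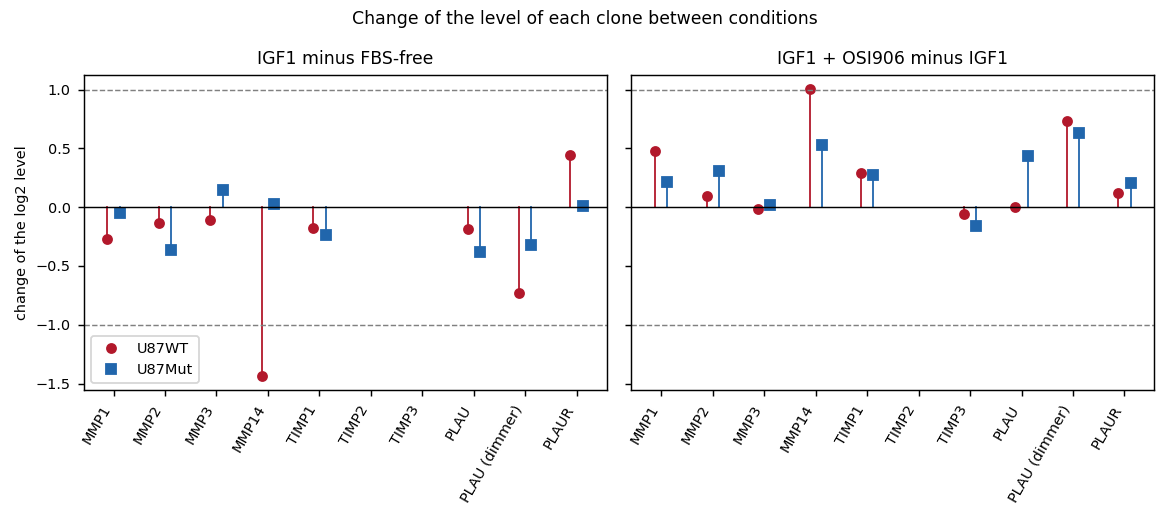
Change of the normalized log2 level (vertical axis) of U87WT (circles) and U87Mut (squares) from FBS-free medium to IGF1 (left) and from IGF1 to IGF1 + OSI906 (right), with dashed lines at 1 and -1; TIMP2 in both panels and TIMP3 on the left have no value. MMP14 in U87WT is past a line in each panel, at -1.44 and 1.01, and every other point lies between the lines.

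The remaining genes changed less. PLAUR in U87WT was higher with IGF1 than in FBS-free medium by 0.44, while U87Mut moved by 0.01, which narrowed the ratio by 0.43. It was higher again, by 0.56 in U87WT and 0.21 in U87Mut, when IGF1 + OSI906 was set against FBS-free medium. PLAUR was thus at its lowest in U87WT without serum and IGF1, where MMP14 was at its highest. Without normalization between arrays the U87WT change with IGF1 was 0.21, beside -0.15 for the median of bright probes.

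In U87Mut, MMP2 and the brighter PLAU probe were both lower with IGF1 and higher again with OSI906 added. TIMP1 moved in the same directions there, as given below, and how many bright probes do so was not counted. With IGF1 the U87Mut level was lower than in FBS-free medium by 0.36 for MMP2 (change -0.36) and by 0.38 for PLAU (change -0.38). Without normalization between arrays these changes were -0.60 and -0.62, beside -0.17 for the median of bright probes. With OSI906 added, the level was higher by 0.31 and 0.43. In U87WT the same changes were -0.13 and -0.19, then 0.10 and 0.00. The dimmer PLAU probe moved in both clones instead, by -0.73 in U87WT and -0.32 in U87Mut with IGF1 and by 0.73 and 0.63 with OSI906 added. MMP1 moved by -0.27 in U87WT with IGF1 and by 0.48 with OSI906 added, against -0.05 and 0.21 in U87Mut.

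TIMP1 moved alike in both clones, and MMP3 moved little in the main processing. TIMP1 changed by -0.18 in U87WT and -0.24 in U87Mut with IGF1, and by 0.29 and 0.28 with OSI906 added. MMP3 changed by -0.11 and 0.15 with IGF1 and by -0.02 and 0.02 with OSI906 added. With the background fitted on all spots its changes with IGF1 were -0.29 in U87WT and 0.31 in U87Mut, and without normalization between arrays they were -0.35 and -0.09. For the TIMP2 spot marked as not uniform, the levels with IGF1 were -0.32 and -0.43 from those in FBS-free medium.

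The levels of each gene could then be put in order over the 6 samples. For MMP2, MMP3, the brighter PLAU probe and, over 4 samples, TIMP2, the U87WT samples came first. The share of all probes with such an order was not counted, so how unusual it is cannot be said. Within a clone most neighbours of these genes lay closer than 0.143, the SD of a ratio, taken here as a scale. For MMP14 the order was U87WT in FBS-free medium, U87WT with IGF1 + OSI906 and U87Mut with IGF1 + OSI906. Then came 3 samples between 10.85 and 10.96, closer together than 0.143, a scale that does not measure the spread of a level between arrays. For PLAUR the U87Mut samples came first and U87WT in FBS-free medium last, 0.44 below the next sample.

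Lists of related genes were set beside the 9. For comparison with each count below, limma called 8.98% of bright probes higher in U87WT and 8.94% lower. Of 19 other MMPs, 12 were bright in every channel and limma called 2 higher in U87WT and 0 lower: MMP7 (mean log2 ratio 0.53 ± 0.08, SE, adjusted p = 0.0250) and MMP19 (ratios 0.76, 0.38 and 0.49, adjusted p = 0.0242). Their median of the mean log2 ratio was 0.13, beside 0.00 for bright probes and 0.65 for the 8 bright genes of the 9 described here. Those 8 were the genes above background in every channel, so this median leaves out TIMP3.

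Of 11 other genes of the plasminogen system, 8 were bright and 1 was called higher, S100A10 (0.24 ± 0.03, SE, adjusted p = 0.0212), a plasminogen-binding protein of the cell surface. The list's median was 0.18. PLAT, the tissue-type plasminogen activator, had ratios of 0.12, 1.00 and 0.59 (limma, adjusted p = 0.137). The plasminogen probe (PLG) was above background in 0 channels. PLAT was picked out after its values were seen.

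Of 8 genes that control MMPs or act beside them in the matrix, 7 were bright, 3 were called higher and 0 lower, with a median of 0.20. SPARC, a matrix protein that affects cell adhesion, had log2 ratios of 1.46, 1.16 and 0.91 (limma mean 1.18 ± 0.11, SE, adjusted p = 0.00798). THBS2, thrombospondin 2, which binds MMP2 and promotes its clearance, had ratios of 0.80, 0.79 and 0.70 (0.76 ± 0.04, adjusted p = 0.00321). Those were the 2 genes of the related lists above 0.5 on all 3 arrays. RECK, a membrane-anchored inhibitor of MMPs, was called at 0.35 ± 0.06 (limma, adjusted p = 0.0318).

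Of 12 ADAM and ADAMTS proteases all were bright, 0 were called higher and 1 lower, the shedding protease ADAM17 (-0.39 ± 0.04, SE, limma adjusted p = 0.0111), with a list median of 0.10. Of 11 AP-1 and ETS factors, which bind the promoters of many MMP genes, all were bright, 0 were called higher and 2 lower. These were the related ETS factors ETV4 (-0.43 ± 0.05, SE, limma adjusted p = 0.0140) and ETV5 (-0.59 ± 0.10, adjusted p = 0.0379), and the list median was -0.04. These counts stand beside the 8.98% of bright probes called higher and the 8.94% called lower.

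**Figure D4:**
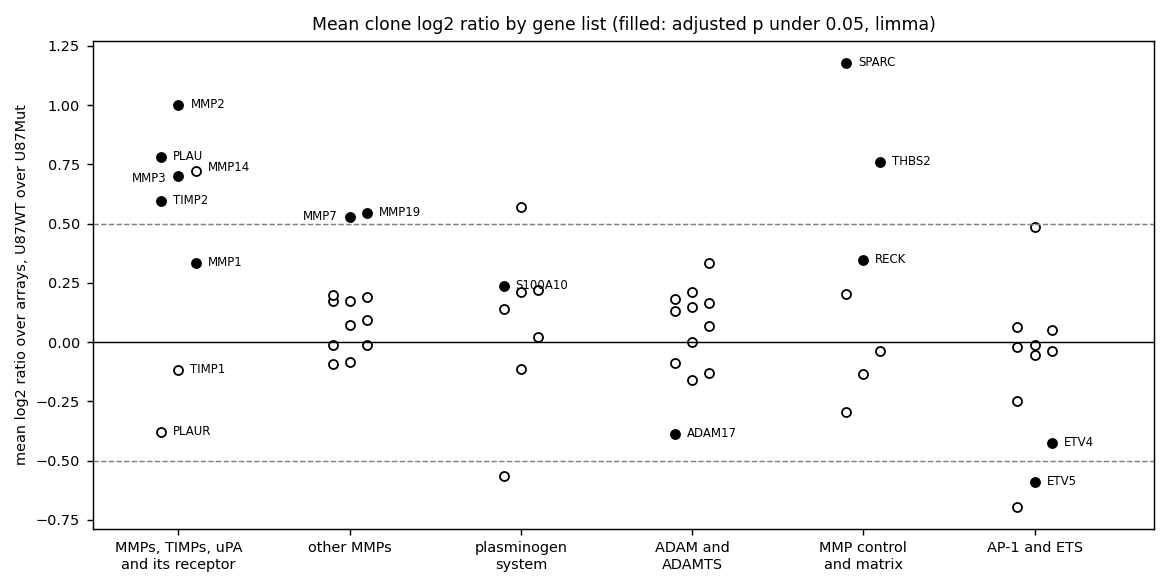
Mean clone log2 ratio over the 3 arrays (vertical axis, U87WT over U87Mut) of each gene well above background in every channel, by list; filled circles passed limma at an adjusted p under 0.05, dashed lines mark 0.5 and -0.5, and the names are those of called genes and of the MMPs, TIMPs, PLAU and PLAUR. The other MMPs, ADAM and ADAMTS proteases centre near 0 (medians 0.13 and 0.10), with SPARC at 1.18 and THBS2 at 0.76 above them.

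For each gene past 0.5 on at least 1 array and bright in every channel, the genes with the most similar profile were found by Euclidean distance between the 6 log2 levels, each profile centred on its mean, over 15194 genes. MMP2 was nearest to RPS21 (distance 0.0763), AGAP3 and ADGRG1, and PLAU to RETREG1 (0.0628), CALR and SNTB2. MMP3 was nearest to C5orf63 (0.147), AIF1L and LOC100506869, and PLAUR had TUBG1 (0.142) and SLC4A2 among its nearest. MMP14 had no profile as close: SLC44A1 lay at 0.330, with log2 ratios of 1.12, 0.09 and 0.65, LYPLAL1-AS1 at 0.417 and MACF1 at 0.476. With so few samples and so many genes, nothing follows from them about shared control.

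How the ratios depend on the processing differed by array. On the FBS-free and IGF1 + OSI906 arrays most alternatives lay close together, except for the dim probes of MMP1 and TIMP3 and for median centring. On the IGF1 array the fit of the background over all spots gave an SD of 701 in Cy5, against 1.32 without the spots marked as not uniform, and there the ratios of MMP14, MMP3 and PLAUR moved most.

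**Figure D5:**
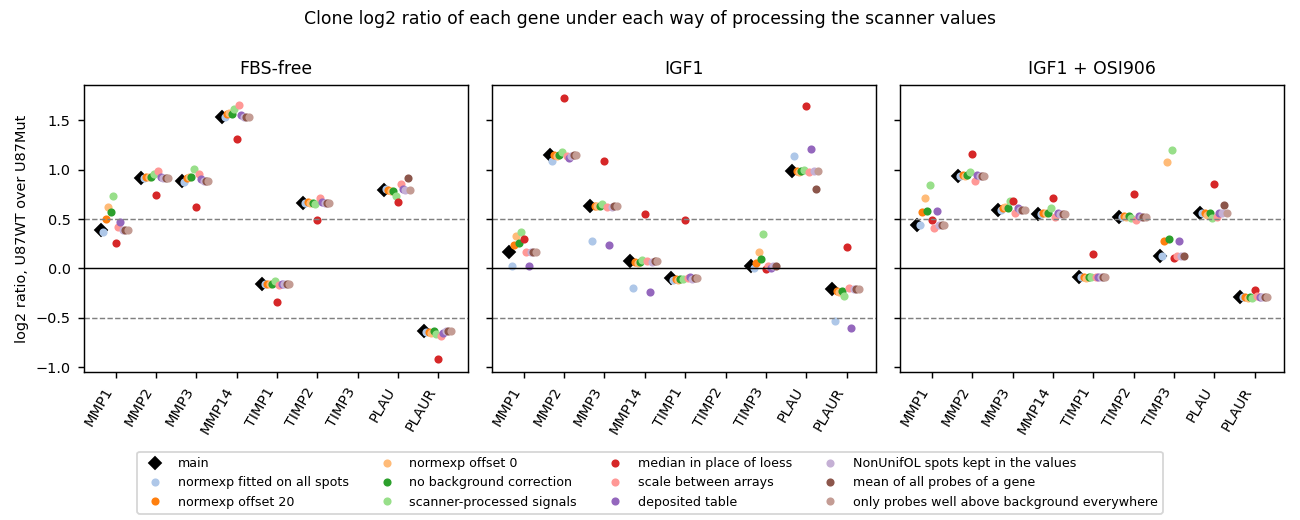
Clone log2 ratio (vertical axis) of each gene on each array under the main processing (diamonds) and 11 alternatives (circles), with dashed lines at 0.5 and -0.5. On the IGF1 array MMP14 ranges from -0.24 to 0.55 and PLAUR from -0.60 to 0.22, while in FBS-free medium MMP14 stays between 1.31 and 1.66.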

How the data were processed

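Total RNA of both clones was labeled and hybridized on 3 arrays. The intensity values (median brightness of spot and local background) were deposited as Agilent Feature Extraction 12.0.3.1 gave them, without normalization. Its processed signals and log10 ratios, per the file headers corrected for background and dye, and the log2 ratios that the authors deposited after background correction and normalization with limma were used as alternatives. With limma 3.58.1 (R 4.3.3), normexp (offset 50, fitted without spots marked as not uniform), loess within and Aquantile between arrays were applied, marked spots and 2075 control spots of each array's 62976 were left out, and spots of the same probe were averaged. RefSeq transcripts named 34892 of 36770 probes that carry one (GRCh38.p14). A gene is represented by its brightest probe. The genes and lists were chosen with earlier results of these data known, so the lists give no independent support. Beyond the 9 genes, those named are listed genes past 0.5 on all 3 arrays or called by limma, and the 3 nearest profiles, of which 1 is not reported here; any other was chosen after its values were seen. On simulated data the limma step recovered 194 of 200 changed probes among 58201, with 3 others called. The simulated arrays were repeats of one another, without treatment response, marked spots or dye bias of single probes. Their changes were placed only in probes with clear signal. The simulation thus checks the steps and does not measure the error of the calls made here. Figures were drawn with matplotlib 3.10.9. The closing section gives the effect of the alternatives.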

Additional observations from a re-analysis of the deposited data

Results flagged for a closer look

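The MMP14 log2 ratio changed by -1.47 from FBS-free medium to IGF1, where the U87WT level changed by -1.44 and the U87Mut level by 0.03. It was singled out because the signs differ, but the U87Mut change of 0.03 is small and its sign depends on the processing. Without normalization between arrays the U87Mut change was -0.21, of the same sign as in U87WT, and with the background fitted on all spots 0.18. The SD of a single ratio, 0.143, does not measure the spread of a change of level between arrays. From FBS-free medium to IGF1 + OSI906 the ratio changed by -0.99, with -0.43 in U87WT and 0.56 in U87Mut. Each rests on 1 sample per clone and condition, and whether the responses of the clones differ was not tested.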

How the results depend on the processing

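The clones are paired within each array, and the limma test was run on those ratios. A pairing of replicates between conditions was not possible, because each condition has 1 array and the labels carry no replicate numbers. The genes below -0.5 on the IGF1 array numbered 1 with the background fitted on all spots and 1 in the deposited table (PLAUR in each), against 0. With limits of 0.5 SD of each array (0.113, 0.113 and 0.108), those below the limit numbered 2 in FBS-free medium, 1 with IGF1 and 1 with IGF1 + OSI906. The limma test called 1 gene with the background fitted on all spots, 1 with a normexp offset of 0 and 2 in the deposited table. It called 0 with the scanner software's signals or with median centring, where it also called 0 of all probes. In those 2 settings 6 of the 9 genes had an unadjusted p under 0.05, but the share of all probes with such a p was not counted. Of all probes, 8.77% were called in the main setting and between 0% and 20% in the alternatives, the highest with bright probes alone. Leaving out 1 array gave 2 to 7 called genes: 2 without the FBS-free array, 7 without the IGF1 array (adding MMP14, adjusted p = 0.04999, and PLAUR) and 2 without the IGF1 + OSI906 array. With the spots marked as not uniform kept, an alternative chosen after seeing the data like that of the dimmer PLAU probe, 4 genes were called and MMP1 was not (adjusted p = 0.0509). TIMP1 was the 1 gene whose mean changed sign, to 0.10 with median centring; the means of the 5 called genes kept theirs in every alternative run. The counts above the limit stayed within 1.5 times in all of them. Without normalization between arrays the median of bright probes from FBS-free medium to IGF1 moved by -0.15 in U87WT and -0.17 in U87Mut, and the changes of level are to be read against that. The causes of these differences were not tested. Dim signal limits MMP1 and TIMP3 and, among the other MMPs, MMP7.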

Other observations

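SPARC and THBS2 were lower with IGF1 than in FBS-free medium in both clones. The log2 level of SPARC differed by -0.99 in U87WT and -0.69 in U87Mut, and that of THBS2 by -0.56 in U87WT and -0.56 in U87Mut, beside 0.01 in U87WT and -0.01 in U87Mut for the median of bright probes. MMP13, a collagenase, had a log2 ratio of 1.53 on the IGF1 array, where its spot read 1087 in Cy5 over a local background of 941. In Cy3 the spot read 29 over 25 and was not well above background, so the ratio lacks a measured U87Mut level. The local Cy5 background of MMP13 was 25 on the FBS-free array and 22 on the IGF1 + OSI906 array. On those 2 arrays the MMP13 ratios were 0.04 and 0.02, and MMP13 was not well above background in either channel.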
